A study of Mus musculus with 37 samples.

Results

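The effect of the Y541S mutation of Esr1 under progesterone was measured in mature luminal cells of the mouse mammary gland, by RNA sequencing of 3 Y541S P4 libraries and 4 WT P4 libraries. These 7 libraries were chosen by their titles from the 37 of the series, and all 18426 genes with enough counts, of 52636 in the deposited tables, entered the comparison. Esr1 encodes estrogen receptor alpha. Both groups came from mice raised to 8 weeks of age, ovariectomized and kept for 8 days with a pellet of P4 (progesterone) and no E2 (estradiol), so that the Esr1 genotype was the labelled difference between them. The other groups set beside them here, of 3 libraries each, were WT placebo, Y541S placebo, D542G P4 (another Esr1 mutation), WT E2 and WT E2+P4, from mice treated in the same way apart from the pellet. The labels give neither the zygosity of the mutations, nor the strain, nor whether a library came from 1 animal or a pool. P-values therefore measure the spread between these samples, which the series calls biological replicates.

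Estrogen receptor alpha is a nuclear receptor that binds estradiol, turns its last helix onto the surface that recruits coactivators, and switches genes on or off from the DNA it occupies. The tyrosine and the aspartate next to it lie at the start of that helix, and the matching residues of the human receptor are recurrent sites of mutation in breast cancers treated with endocrine therapy. In the mammary gland the receptor marks mature luminal, or hormone-sensing, cells. Most of these cells also hold the progesterone receptor, and they pass hormone signals on to their neighbours through secreted factors such as amphiregulin, RANKL and Wnt4.

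The 2 mutated codons are adjacent. In the Esr1 transcript ENSMUST00000067086.13 (599 codons), the tyrosine codon changed in Y541S (TAT) and the aspartate codon changed in D542G (GAC) occupy chr10:5001244-5001249 on the plus strand of GRCm38, in exon 9, within the coding sequence. Codons 532 to 551 of the reference are shown because they carry both sites, with the tyrosine and aspartate codons in capitals; the mutant bases were not read from these data.
Esr1: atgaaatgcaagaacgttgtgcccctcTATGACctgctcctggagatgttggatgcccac

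The total count was 30641704 to 43421236 in the 7 libraries, against 25694701 to 52244504 over the series. The first principal component of log2 CPM held 51.9% of the variance among the 7 and separated the genotypes, with WT P4 at -81.8 to -36.1 and Y541S P4 at 85.2 to 99.7. The second held 16.8% and set WT P4 sample 2 (-106.4) apart from the other 6 libraries (-14.4 to 33). WT P4 samples 4 and 5 carry identifiers of a later number series than the other 5 libraries. The luminal keratins Krt8 (1280 to 1760 CPM, read counts scaled to library size) and Krt18 (4720 to 7710 CPM) were high in all 7 libraries. Markers of other cell types were lower but uneven. The summed level of 16 basal markers was 166 to 958 CPM in WT P4 (highest in sample 2) and 161 to 497 CPM in Y541S P4 (highest in sample 3). That of 12 endothelial markers was 95.5 to 282 CPM in WT P4 (highest in sample 5) and 78.8 to 107 CPM in Y541S P4. The 19 leukocyte markers summed to 10.2 to 61.9 CPM in WT P4 and 15.5 to 36.4 CPM in Y541S P4, with Ms4a1 and Itgam at 0 throughout. Bulk RNA cannot tell fewer cells of a type from less RNA per cell.

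Y541S changed the level of many genes under progesterone. At a Benjamini-Hochberg adjusted p under 0.05 in edgeR's quasi-likelihood test, 5085 of 18426 genes (27.6%) were called, of which 2681 (14.6%) were higher and 2404 (13.0%) lower in Y541S cells. Changes of 2-fold or more were found for 2552 of them (13.8% of the tested genes), 1177 higher and 1375 lower, and 556 in each direction passed 4-fold. The median log2 fold change over all tested genes was -0.05. All libraries of one genotype lay outside the range of the other for 7951 genes (43.2%), with Y541S above for 21.9% and below for 21.3% of the tested genes, and 4890 of the 7951 (26.5% of the tested genes) were called. Leaving out each of the 7 libraries in turn gave 3707 to 5024 called genes.

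**Figure D1:**
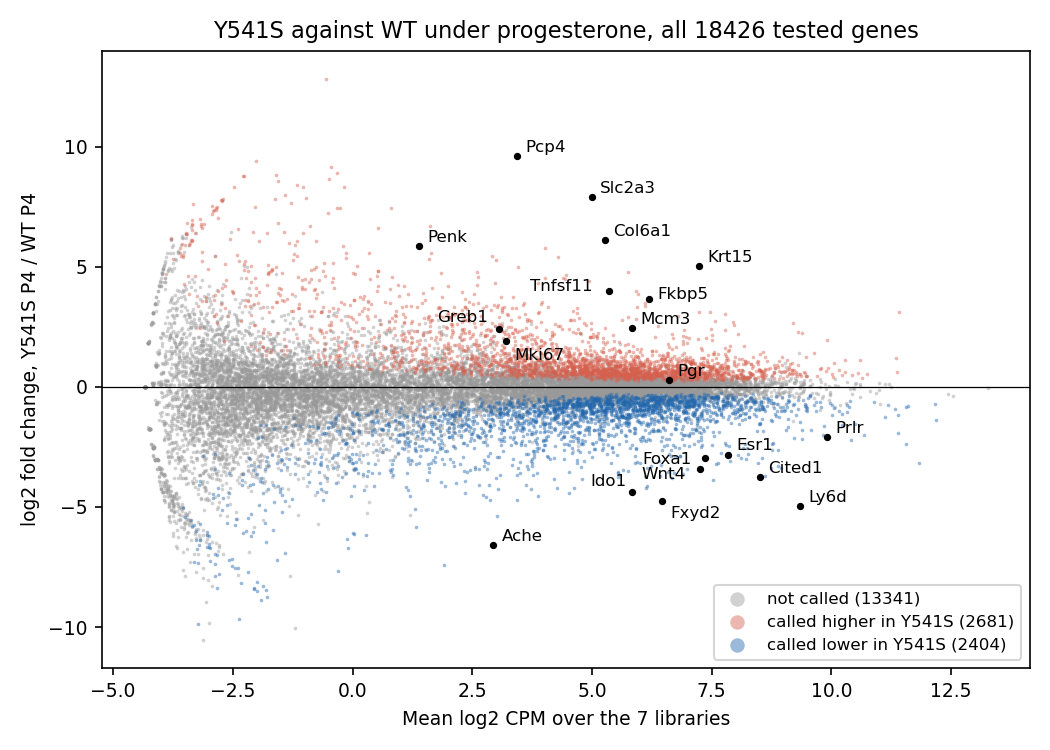
Log2 fold change of Y541S P4 over WT P4 (vertical axis) against the mean log2 CPM over the 7 libraries (horizontal axis) for 18426 genes, 1 point each. Red points are the 2681 genes called higher and blue points the 2404 called lower in Y541S cells; Pgr lies near 0 while Esr1, Foxa1, Prlr and Wnt4 lie among the falls of abundant genes.

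The largest rises and falls were named by size among the called genes whose groups did not overlap, so the gap between their groups describes the choice and is no further test. Slc2a3, the neuronal-type glucose transporter GLUT3, stood at 3.84, 4.41, 3.36 and 1.21 CPM in WT P4 samples 2 to 5 and at 699, 938 and 690 CPM in Y541S P4 samples 1 to 3. Its log2 fold change was 7.91 ± 0.92 (SE; adjusted p = 4.06e-07). Pcp4, a small calmodulin-binding protein, went from 0.46 to 0.667 CPM in WT P4 to 412 to 508 CPM in Y541S P4 (log2 fold change 9.63 ± 0.86, adjusted p = 1.2e-08). Its span is overlapped by other genes over 99.6% of its length, so reads could be shared with them. Both genes were nearly silent in WT P4 cells.

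The 3 major chains of collagen VI, a beaded-filament collagen of the pericellular matrix, rose together. Col6a1 (chr10:76708792-76726168, minus strand) stood at 5.48 to 7.19 CPM in WT P4 and at 455, 443 and 410 CPM in Y541S P4, with a log2 fold change of 6.13 ± 0.83 (adjusted p = 3.21e-06). Col6a2, its neighbour on chromosome 10, went from 1.73 to 7.79 CPM to 169 to 186 CPM (5.42 ± 0.99, adjusted p = 0.000136). Col6a3 on chromosome 1 went from 3.62 to 7.33 CPM to 126 to 172 CPM (4.65 ± 0.5, adjusted p = 1.18e-07). Collagen I, the main fibrillar collagen of fibroblasts, was lower: Col1a1 was 3.17 to 68.6 CPM in WT P4 and 0.492 to 2.17 CPM in Y541S P4 (-4.01 ± 1.38, adjusted p = 0.0302). Its highest WT library was sample 3, and the others were at 3.17 to 11.7 CPM. The small proteoglycan Dcn was 426 to 642 CPM there, against 17.1 to 18 CPM in WT P4 samples 3 to 5 and 236 CPM in sample 2 (2.94 ± 0.88, adjusted p = 0.0128). In all, 2 of 12 fibroblast markers were called higher and 2, Col1a1 and Col1a2, lower (33.3%, against 27.6% of all tested genes). Their median log2 fold change was -1.8, against -0.05 over all genes. All Y541S libraries lay below all WT libraries for 5 of the 12 and above them for 2. Neither fall was called without WT P4 sample 3, where they stood at -2.36 and -2.39, or without Y541S P4 sample 1 or 2, and Col1a1 was not called without sample 3 either. The summed level of the 12 fibroblast markers was 71.8 to 418 CPM in WT P4 and 893 to 1090 CPM in Y541S P4. In Y541S P4 Col6a1 and Dcn made up most of that sum, and its part in these results was not tested.

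Krt15, a keratin of stratified and progenitor epithelium, was 89.2, 23, 22 and 19.2 CPM in WT P4 samples 2 to 5 and 1170, 1350 and 1260 CPM in Y541S P4 (log2 fold change 5.03 ± 0.96, adjusted p = 0.000237). The 3 Y541S libraries lay close together, and WT P4 sample 2 was the highest of the WT libraries. Also among the 12 largest rises were Afap1l1, an adaptor of the actin cytoskeleton (5.8 ± 0.56), Cpeb1, which binds the polyadenylation element of messenger RNAs (5.44 ± 0.6), Tmem229a (5.28 ± 0.56), the tyrosine phosphatase Ptpn5 (5 ± 0.6) and the NAD-synthesizing enzyme Nmnat2 (4.8 ± 0.71). Their adjusted p-values ran from 2.81e-08 to 9.64e-06.

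The largest falls included secreted and surface proteins of WT luminal cells. Ache, acetylcholinesterase, was 66.5, 106, 26.4 and 34.8 CPM in WT P4 and 0.914, 0.514 and 0.389 CPM in Y541S P4 (log2 fold change -6.58 ± 1.19, adjusted p = 0.000124). Ly6d, a surface protein anchored in the membrane by lipid, was among the more abundant transcripts of WT P4 cells at 2510 to 4180 CPM and stood at 204, 43.8 and 56.9 CPM in Y541S P4 (-4.96 ± 0.82, adjusted p = 4.22e-05). Fxyd2, a regulator of the sodium pump, was 236 to 440 CPM against 10 to 17.3 CPM (-4.75 ± 0.87, adjusted p = 0.000152). Y541S P4 sample 1 kept more Ly6d than the other Y541S libraries.

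Ido1, which degrades tryptophan, fell from 170 to 237 CPM to 9.77 to 10.9 CPM (-4.38 ± 1.03, adjusted p = 0.00183). Nppc, the precursor of C-type natriuretic peptide, fell from 18.9 to 46.4 CPM to 0.827 to 1.78 CPM (-4.72 ± 0.87, adjusted p = 0.000162). Nckap5 was 77.9 to 99.8 CPM in WT P4 against 2.22 to 7.84 CPM in Y541S P4 (-4.41 ± 0.53, adjusted p = 5.93e-07). Also among the 12 largest falls were Dusp2, a phosphatase of MAP kinases (-4.53 ± 0.87), Trim15 (-5.39 ± 1.25), C1s1 (-4.6 ± 0.77; 94.9% of its span is overlapped by other genes), the unnamed models Gm30275 (-4.7 ± 0.87) and Gm33424 (-4.51 ± 0.87), and Col1a2 (-4.42 ± 1.44). Col1a2 rested on uneven WT values, with 101 CPM in sample 3 and 4.71 to 9.35 CPM in the others.

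**Figure D2:**
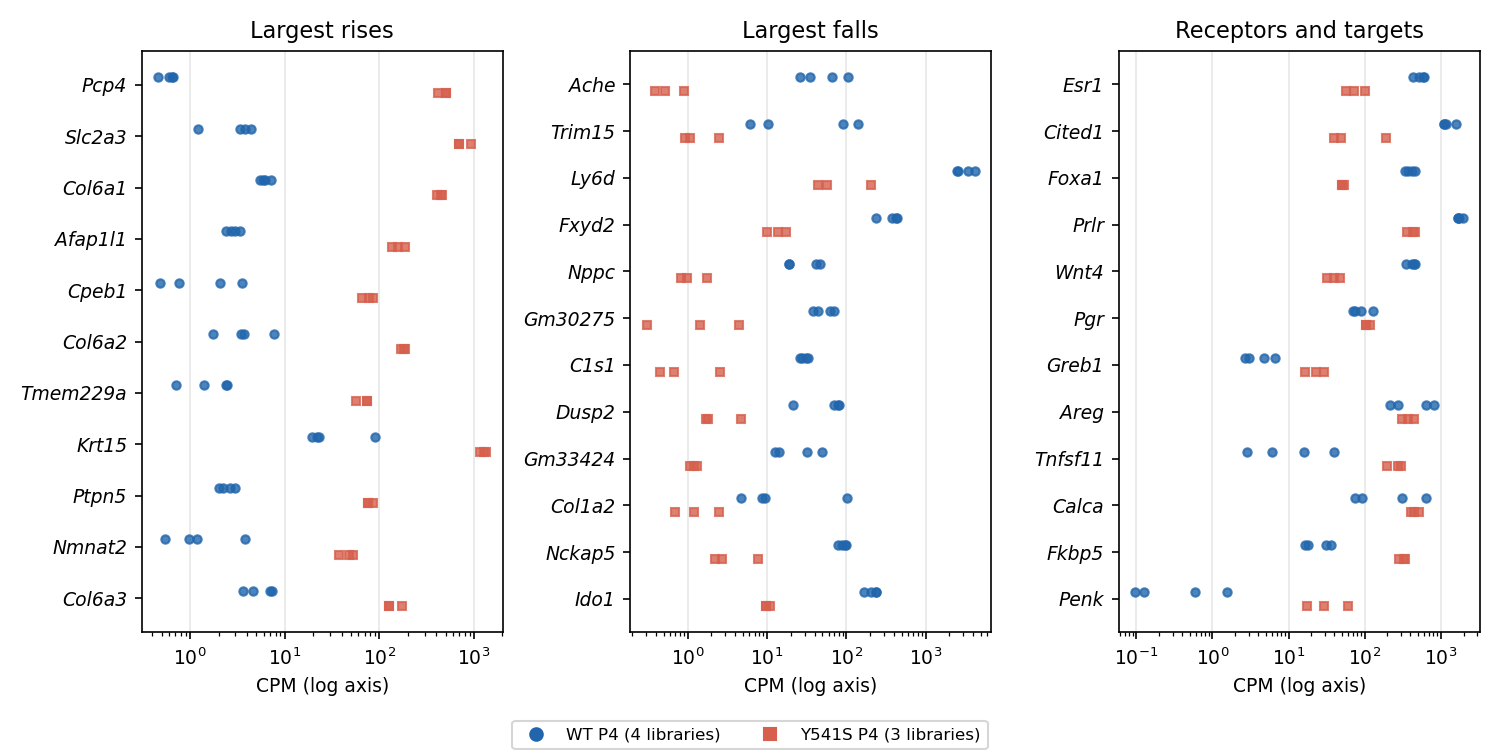
CPM on a log axis in each library for 11 of the 12 largest rises (left), the 12 largest falls (middle) and 12 receptor and target genes (right); circles are the 4 WT P4 libraries and squares the 3 Y541S P4 libraries. Genes of the left and middle panels were chosen with groups that do not overlap; in the right panel, chosen without that condition, the groups of Pgr, Areg and Calca overlap.

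Markers of the hormone-sensing state were lower in Y541S cells. Of 18 tested, 12 were called lower and none higher, against 13.0% and 14.6% of all tested genes, with a median log2 fold change of -1.38 against -0.05 over all genes. Esr1 itself was 580, 607, 439 and 523 CPM in WT P4 samples 2 to 5 (537 ± 74.2, mean ± SD, n = 4) and 100, 71.6 and 57.1 CPM in Y541S P4 (76.4 ± 22.1, n = 3). The highest mutant library was well below the lowest WT library, and the log2 fold change was -2.81 ± 0.34 (adjusted p = 7.55e-07). The change measures Esr1 RNA and not receptor protein, and it does not show which allele was read.

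Factors that work with the receptor fell alongside it. Foxa1, the pioneer factor that opens chromatin at estrogen receptor sites, was 369, 340, 425 and 464 CPM in WT P4 and 49.9, 53.9 and 49.8 CPM in Y541S P4 (-2.96 ± 0.44, adjusted p = 1.18e-05). Cited1, a coactivator of the receptor that marks hormone-sensing cells, was 1110, 1180, 1590 and 1100 CPM against 189, 49.3 and 40 CPM (-3.75 ± 0.51, adjusted p = 3.2e-06). Tbx3, a T-box factor of luminal cells, was 449 to 816 CPM against 63 to 78.3 CPM (-3.09 ± 0.32, adjusted p = 6.08e-08). None of these had overlapping groups. Smaller falls passed for Gata3 (-0.76 ± 0.25, adjusted p = 0.021) and Xbp1 (-0.7 ± 0.19, adjusted p = 0.00634), and Prom1, Ly6a, Wnt5a, Wnt4, Prlr and Msx2 completed the 12.

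Pgr did not follow Esr1. The progesterone receptor gene was 90.9, 128, 70 and 74.4 CPM in WT P4 and 106, 117 and 105 CPM in Y541S P4, so that the mutant libraries fell inside the WT range. The log2 fold change was 0.27 ± 0.34 (adjusted p = 0.597). Among 25 other nuclear receptors 4 were called higher and 7 lower (44.0%, against 27.6% of all tested genes). The 4 were 2 without WT P4 sample 2 or without any of the 3 Y541S P4 samples. Vdr, the vitamin D receptor, rose from 64.7 to 123 CPM to 322 to 341 CPM (1.99 ± 0.28, adjusted p = 5.04e-06), and the orphan receptor Esrrb rose by 3.32 ± 0.45. Its relative Esrrg (-3.53 ± 0.51), the retinoic acid receptor Rara (-1.62 ± 0.23) and the mineralocorticoid receptor Nr3c2 (-2.76 ± 0.41) were lower.

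Coregulators of the estrogen receptor were lower more often than higher, with 6 of 18 called lower and 2 called higher (median -0.51). Of all tested genes 13.0% were lower and 14.6% higher. Ncoa1, the p160 coactivator SRC-1, was 68.6 to 92.6 CPM in WT P4 and 16.4 to 23.8 CPM in Y541S P4 (-2.04 ± 0.32, adjusted p = 2.16e-05). The arginine methyltransferase Carm1 fell by 1.09 on the log2 scale. The 2 called higher were Greb1 and Ncoa3, of which 1 was called without WT P4 sample 3 or 4 or Y541S P4 sample 2 or 3.

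Known estrogen receptor targets were called at a rate near that of all tested genes. Of 25 tested, 5 were called higher and 3 lower (32.0%, against 27.6% of all tested genes), with a median of 0.05. The 5 were 3 without WT P4 sample 5. Greb1, a cofactor and a standard readout of estrogen action, was 2.69, 3, 6.56 and 4.74 CPM in WT P4 and 22.7, 29.3 and 16.3 CPM in Y541S P4 (2.43 ± 0.47, adjusted p = 0.000256). Adora1, an adenosine receptor, rose from 1.92 to 7.93 CPM to 29.3 to 36.8 CPM (2.99 ± 0.43, adjusted p = 7.96e-06). Areg, the ErbB ligand amphiregulin, was 641, 819, 213 and 277 CPM in WT P4 and 444, 309 and 371 CPM in Y541S P4, with the groups interleaved (-0.38 ± 0.43, adjusted p = 0.56). Myc (-0.24 ± 0.28) and Ccnd1 (0.64 ± 0.27, adjusted p = 0.0839), a transcription factor and a cyclin of G1 phase, did not pass.

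Targets of the progesterone receptor and related steroid receptors were divided as well, with 4 of 17 called higher and 4 lower. The share called was 47.1%, against 27.6% of all tested genes. Fkbp5, a cochaperone of steroid receptors, was 31.5, 36.3, 18.3 and 16.5 CPM in WT P4 and 287, 344 and 331 CPM in Y541S P4 (3.64 ± 0.46, adjusted p = 1.12e-06). Tnfsf11, which encodes the paracrine signal RANKL, was 15.8, 39.9, 6.15 and 2.83 CPM against 200, 272 and 302 CPM (3.99 ± 0.95, adjusted p = 0.00208). Wnt4, the other main paracrine target of progesterone, went the opposite way, from 447, 463, 424 and 349 CPM to 48.1, 31.7 and 39.7 CPM (-3.4 ± 0.58, adjusted p = 6.47e-05). None of the 3 genes had overlapping groups.

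Secreted signals of the hormone-sensing cell were divided in the same manner, with 7 of 22 paracrine factors called higher and 5 lower. The share called was 54.5%, against 27.6% of all tested genes. Penk, the enkephalin precursor, was 0.598, 1.57, 0.0961 and 0.127 CPM in WT P4 and 17.5, 61.3 and 29.1 CPM in Y541S P4 (5.86 ± 1, adjusted p = 6.51e-05). Calca, the calcitonin gene, was 315, 645, 93.2 and 74.6 CPM against 404, 446 and 520 CPM and did not pass (0.7 ± 0.73, adjusted p = 0.523). Inhbb, the activin beta B subunit, fell from 209 to 486 CPM to 60 to 65.2 CPM (-2.41 ± 0.29, adjusted p = 5.76e-07). The count of 7 fell to 4 when WT P4 sample 4 or 5, or any of the 3 Y541S P4 samples, was left out. The Wnt list (2 of 22 higher, 3 lower, or 22.7%, against 27.6% of all tested genes) held Wnt4, Wnt5a and Wnt7b as its falls. None of the list was called higher without WT P4 sample 4 or 5 or Y541S P4 sample 3, and 1 without any of the other libraries. The ErbB list (2 of 14 higher, 3 lower, or 35.7%) held the receptors Erbb2 (1.1 ± 0.23) and Erbb3 (0.62 ± 0.2) as its rises and the neuregulins Nrg1, Nrg2 and Nrg4 as its falls. Of the falls none was called without Y541S P4 sample 3 and 1 without sample 2, and of the rises 1 without WT P4 sample 4 or Y541S P4 sample 2.

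The prolactin pathway changed at several levels. Of its 10 genes 4 were called higher and 4 lower, against 14.6% and 13.0% of all tested genes. Prlr, the prolactin receptor, was 1690, 1680, 1990 and 1750 CPM in WT P4 and 458, 436 and 366 CPM in Y541S P4 (-2.08 ± 0.33, adjusted p = 2.69e-05). The transcription factors below it were higher: Stat5a went from 133 to 218 CPM to 400 to 458 CPM (1.26 ± 0.23, adjusted p = 0.000137). The feedback inhibitors were divided, with Socs3 lower (-1.8 ± 0.29), Socs1 lower (-1.58 ± 0.31) and Socs2 higher (1.81 ± 0.4). Socs3 differed within the WT group too, at 802 and 642 CPM in samples 2 and 3 and 1750 and 1650 CPM in samples 4 and 5, the 2 with later identifiers. The 3 Y541S libraries, at 308 to 368 CPM, lay below all of them.

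Cell cycle genes were higher in Y541S cells. Of 26 S phase genes 22 were called higher and none lower, against 14.6% and 13.0% of all tested genes, with a median log2 fold change of 1.94. Of 30 G2 and M phase genes 17 were called higher and 1 lower, with a median of 2.63. The exception was Mad2l1, a spindle checkpoint protein (-1.11 ± 0.42, adjusted p = 0.0468), whose WT values were 44.1 and 44 CPM in samples 2 and 3 and 179 and 174 CPM in samples 4 and 5. Its call was lost without WT P4 sample 4 or 5 or any of the 3 Y541S P4 samples. All Y541S libraries lay above all WT libraries for 24 of the 26 and 27 of the 30 genes, against 21.9% of all tested genes.

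Among the S phase genes, Mcm3, a subunit of the replicative helicase, was 59.8, 25.7, 15.4 and 19.8 CPM in WT P4 and 155, 183 and 154 CPM in Y541S P4 (2.44 ± 0.46, adjusted p = 0.000201). Mcm7, of the same complex, rose by 2.19 ± 0.39. Among the mitotic genes, Ccnb2, a B-type cyclin, was 28.6, 1.76, 1.67 and 2.39 CPM in WT P4 and 91.8, 103 and 94.3 CPM in Y541S P4 (3.47 ± 0.82, adjusted p = 0.00196). Bub1b, a checkpoint kinase, rose by 2.65 ± 0.53 and Cdc20, an activator of the anaphase-promoting complex, by 3.14 ± 0.66.

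WT P4 sample 2 stood between the genotypes. Its mean log2 CPM over the S phase genes was 4.14, against 2.54 to 2.7 in the other WT libraries and 5.05 to 5.12 in Y541S P4. Over the G2 and M phase genes it was 4.22, against 0.66 to 1.22 and 5.17 to 5.28. Basal markers were highest in the same library, with Krt5 at 200 CPM, Krt14 at 127 CPM and Trp63 at 87.5 CPM, against at most 4.99, 9.17 and 2.45 CPM in the other WT libraries. What that difference contributed to the results was not tested. Without it, 24 S phase genes and 28 G2 and M phase genes were called higher. Without WT P4 sample 3, 4 or 5, the G2 and M phase count was 11, 10 and 10, and with the libraries of the first identifier series alone 10 S phase genes and 2 G2 and M phase genes were called higher.

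**Figure D3:**
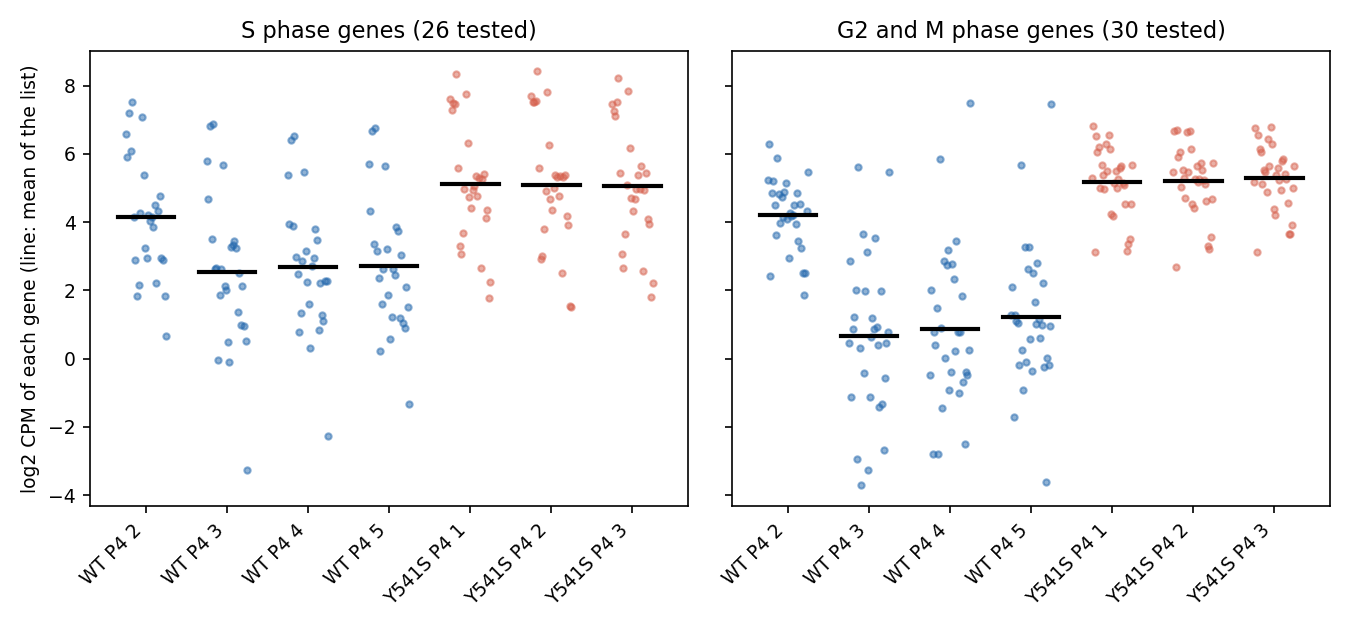
Log2 CPM of each S phase gene (left, 26 genes) and each G2 and M phase gene (right, 30 genes) in the 7 libraries, 1 point per gene, with the mean of the list as a bar. The Y541S P4 means lie at 5.05 to 5.12 and 5.17 to 5.28, above all WT P4 means, of which sample 2 is the highest.

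Promoters are shown for 4 of these genes because they carry letters known from cell cycle promoters. E2F factors bind words such as TTTGGCGC, TTTCGCGC, TTTCCCGC and TTTGCCGC at genes of DNA replication, and the CCAAT box is frequent in promoters of mitotic genes. Both were searched on both strands in the 300 bases from 250 before to 50 after the start of transcription (RefSeq, GRCm38.p6), with overlapping matches counted. An E2F word was present in 626 of 27025 promoters (2.32%) and in 8 of the 19 S phase genes called higher that had an entry. The CCAAT box was present in 37.9% of all promoters and in 11 of the 15 G2 and M phase genes called higher with an entry, and at a like share in the S phase genes called higher (14 of 19). The full palindromic estrogen response element was present in 0.0666% of all promoters and in none of these. Matches describe the letters and do not show binding. In the sequences, capitals mark the E2F words in Mcm3 (chr1:20820263-20820562, minus strand) and Mcm6 (chr1:128359656-128359955, minus strand), and the CCAAT box or its complement in Ccnb2 (chr9:70421505-70421804, minus strand) and Hmmr (chr11:40733388-40733687, minus strand).
Mcm3: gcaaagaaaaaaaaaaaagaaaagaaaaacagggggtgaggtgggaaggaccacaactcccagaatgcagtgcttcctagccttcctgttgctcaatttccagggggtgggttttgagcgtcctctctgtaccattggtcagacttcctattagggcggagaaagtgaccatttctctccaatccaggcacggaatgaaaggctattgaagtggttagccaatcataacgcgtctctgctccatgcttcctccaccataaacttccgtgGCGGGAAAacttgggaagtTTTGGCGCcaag
Mcm6: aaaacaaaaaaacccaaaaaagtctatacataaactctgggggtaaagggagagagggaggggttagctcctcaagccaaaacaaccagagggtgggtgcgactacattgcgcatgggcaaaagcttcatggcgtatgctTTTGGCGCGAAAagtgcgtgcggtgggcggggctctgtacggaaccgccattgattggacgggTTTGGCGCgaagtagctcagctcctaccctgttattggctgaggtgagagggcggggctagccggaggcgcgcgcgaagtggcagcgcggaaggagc
Ccnb2: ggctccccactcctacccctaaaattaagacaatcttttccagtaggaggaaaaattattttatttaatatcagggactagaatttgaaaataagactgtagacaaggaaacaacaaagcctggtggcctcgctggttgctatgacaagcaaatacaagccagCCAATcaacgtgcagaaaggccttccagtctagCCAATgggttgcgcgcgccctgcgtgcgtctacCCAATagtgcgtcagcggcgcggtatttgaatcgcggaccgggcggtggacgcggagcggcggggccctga
Hmmr: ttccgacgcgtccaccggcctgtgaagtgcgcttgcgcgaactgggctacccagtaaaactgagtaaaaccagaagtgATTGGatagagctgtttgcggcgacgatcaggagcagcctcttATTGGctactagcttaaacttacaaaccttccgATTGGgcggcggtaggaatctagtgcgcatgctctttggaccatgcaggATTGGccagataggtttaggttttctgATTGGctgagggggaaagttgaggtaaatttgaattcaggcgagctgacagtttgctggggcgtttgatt

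Of 17 secreted innate defence genes 8 were called higher and 2 lower, against 14.6% and 13.0% of all tested genes (median 1.4). Without Y541S P4 sample 1 the median was 0.76 and 6 were higher. C3, the central complement protein, was 59.7, 86.4, 30.7 and 45.4 CPM in WT P4 and 258, 273 and 231 CPM in Y541S P4 (2.19 ± 0.38, adjusted p = 6.62e-05). Slpi, a secreted protease inhibitor, went from 2.48 to 8.9 CPM to 43.1 to 56.7 CPM (3.49 ± 0.72, adjusted p = 0.000495). The chemokine Cxcl5 went from 0.128 to 2.24 CPM to 34.3 to 42.9 CPM (5.58 ± 0.9, adjusted p = 3.19e-05). The 2 lower genes were Ltf, lactotransferrin, and Pigr, the receptor that carries polymeric immunoglobulin across epithelium; Ltf fell from 793 to 1130 CPM to 101 to 230 CPM (-2.65 ± 0.86, adjusted p = 0.0216). Neither fall was called without Y541S P4 sample 2 or 3, and 1 was without sample 1 or WT P4 sample 4. Of the 8, Saa1 and Saa2 rested on Y541S P4 sample 1, with Saa1 at 9.49 CPM there and 0.179 and 0.25 CPM in the others.

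Interferon-stimulated genes showed 9 of 24 higher and 1 lower, against 14.6% and 13.0% of all tested genes (median 0.92). Rsad2, the antiviral enzyme viperin, was 4.78 to 8.81 CPM in WT P4 and 48, 21.8 and 31.4 CPM in Y541S P4 (2.47 ± 0.4, adjusted p = 2.95e-05). Oas1a (1.89 ± 0.33) and Bst2 (1.25 ± 0.24) rose as well. The gene that fell was Stat2, a subunit of the factor that carries the interferon signal, from 60.9 to 87.8 CPM to 8.8 to 19.5 CPM (-2.15 ± 0.35, adjusted p = 3.24e-05). The count of 9 fell to 6 without Y541S P4 sample 1, the highest of the 3 for Rsad2.

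Keratins, milk genes and progenitor markers were called at rates near the 27.6% of all tested genes. Krt6a, a keratin induced in activated epithelium, rose from 104 to 169 CPM to 551 to 723 CPM (2.22 ± 0.43, adjusted p = 0.000249), and Krt4 fell (-1.82 ± 0.55, adjusted p = 0.0129). Of 14 keratins and mucins, 2 were higher and 2 lower (28.6%). Of 19 markers of luminal progenitors and alveolar cells, 2 were higher and 2 lower (21.1%). The ETS factor Ehf rose from 57.1 to 85.6 CPM to 245 to 283 CPM (1.84 ± 0.4, adjusted p = 0.00084). Elf5, the alveolar ETS factor, was 6.07 to 19.7 CPM against 12.6 to 14.7 CPM (0.15 ± 0.41, adjusted p = 0.83). Of 16 genes of milk protein and lipid secretion, 2 were higher and 2 lower, among them Btn1a1, butyrophilin of the milk fat globule (-2.65 ± 0.7, adjusted p = 0.00548). These small counts rested on single libraries. Without Y541S P4 sample 2, no keratin or mucin and no progenitor marker was called lower, and no milk gene higher. Without Y541S P4 sample 3, no progenitor marker was called lower.

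Cholesterol pathway genes were lower more often than higher, with 9 of 22 called lower and 3 higher (median -0.18). Of all tested genes 13.0% were lower and 14.6% higher. Msmo1, a sterol oxidase, was 142, 138, 112 and 121 CPM in WT P4 and 29.4, 21.8 and 30 CPM in Y541S P4, with no overlap (-2.24 ± 0.26, adjusted p = 4.91e-07). Sc5d, a late desaturase of the pathway, fell from 170 to 189 CPM to 51.3 to 57.4 CPM (-1.71 ± 0.15, adjusted p = 9.49e-09). The count of 9 was 5 without Y541S P4 sample 2 or 3, and 6 without WT P4 sample 2 or 3. Fatty acid synthesis genes did not share the direction: 3 of 14 were higher, with Fasn (1.15 ± 0.25) and Scd2 (2.04 ± 0.43) among them, and 2 were lower. Their share called was 35.7%, against 27.6% of all tested genes.

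Of 16 genes of glycolysis and glucose transport 5 were higher and 2 lower (43.8%, against 27.6% of all tested genes). There were 3 higher without Y541S P4 sample 1 and none lower without sample 3. Apart from Slc2a3 the rises were small, such as 0.55 ± 0.12 for the enolase Eno1 (adjusted p = 0.000897). Of 23 genes of the unfolded protein response 6 were lower and none higher, against 13.0% and 14.6% of all tested genes. The share called, 26.1%, was near the 27.6% of all tested genes, and the median was -0.15. Herpud1, of the membrane machinery that removes misfolded proteins, was 146, 136, 496 and 381 CPM in WT P4 and 73.3 to 82.5 CPM in Y541S P4 (-1.88 ± 0.34, adjusted p = 0.000113). Of 23 immediate early and dissociation stress genes 7 were lower and 3 higher (43.5%, against 27.6% of all tested genes). Fosb showed the division of the WT libraries, with 259 and 225 CPM in samples 2 and 3, 1090 and 1320 CPM in samples 4 and 5, and 96.1 to 165 CPM in Y541S P4 (-2.53 ± 0.56, adjusted p = 0.000976). Within the first identifier series alone 5 of these 23 genes were lower and 4 higher.

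No leukocyte, adipocyte or erythroid marker and no mitochondrially encoded gene passed, of 17, 6, 4 and 12 tested. One of 12 endothelial markers was lower, Plvap, at 54.7 and 69.5 CPM in WT P4 samples 4 and 5, 9.77 and 10.8 CPM in samples 2 and 3, and 2.81 to 6.3 CPM in Y541S P4. One of 16 basal markers was higher, the oxytocin receptor Oxtr (2.33 ± 0.57, adjusted p = 0.00257), and 3 were higher without WT P4 sample 2. Beside the 27.6% of all tested genes, 7.14% of the Notch pathway was called (none of 14 higher, 1 lower), 15.4% of the IGF pathway (1 of 13 higher, 1 lower) and 16.7% of MHC class II presentation (none of 6 higher, 1 lower). The IGF fall was not called without WT P4 sample 4 or Y541S P4 sample 1 or 3. The uroplakins and the placental-type cathepsins each had 1 of 4 called lower.

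**Figure D4:**
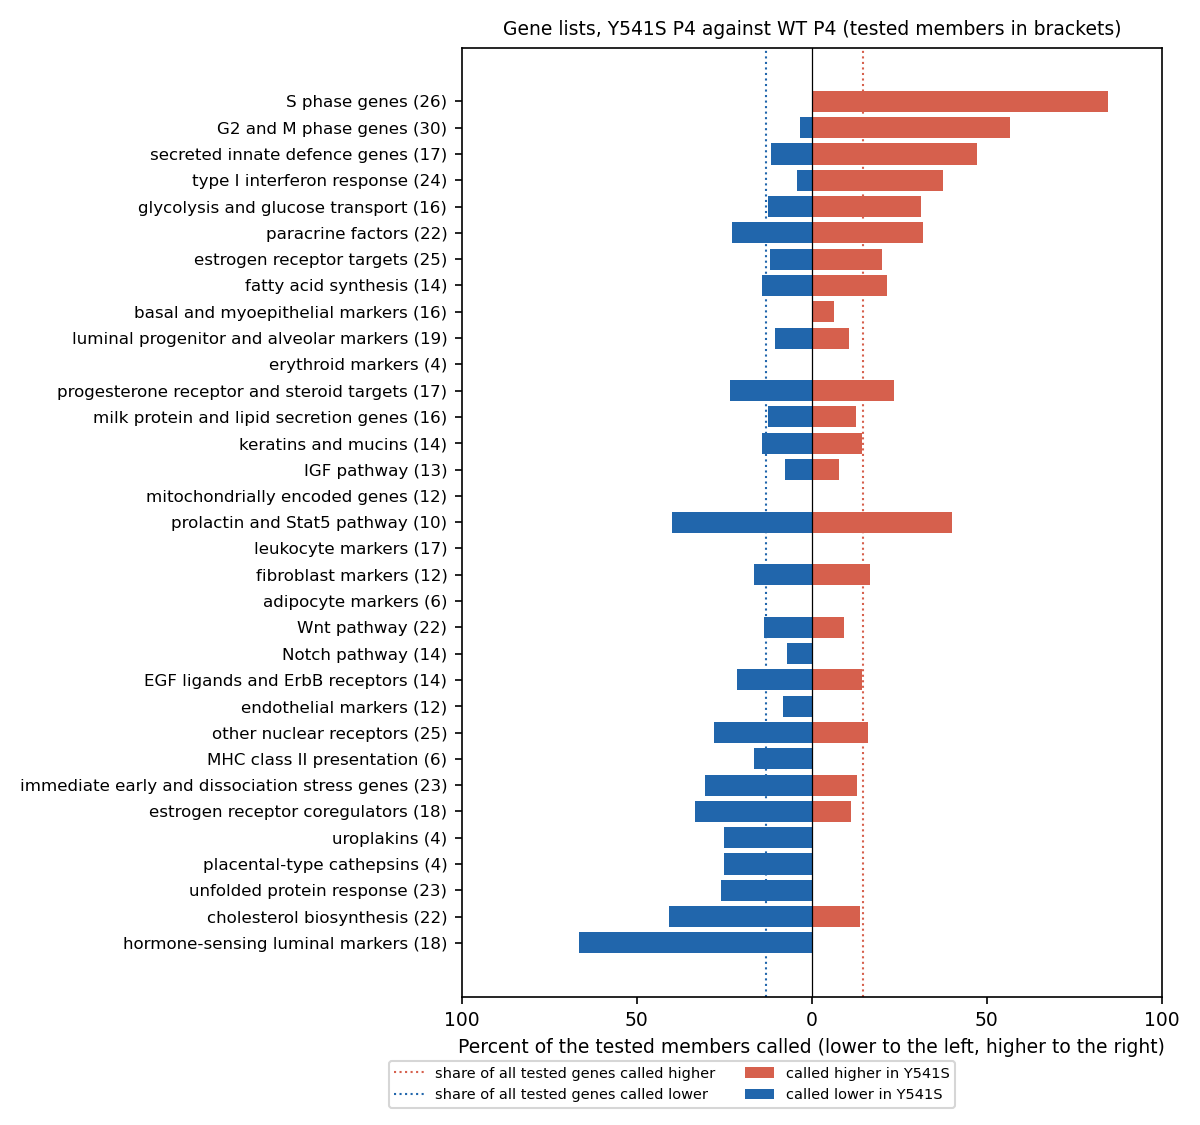
Percent of the tested members of each of 33 gene lists called higher (red, right) or lower (blue, left) in Y541S P4 against WT P4, with the number tested in brackets; dotted lines give the shares of all tested genes, 14.6% higher and 13.0% lower. S phase genes lie at the top, with 22 of 26 higher, and hormone-sensing markers at the bottom, with 12 of 18 lower.

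The effect of the mutation was compared with its effect without hormone. In the placebo groups, which share no library with the P4 groups, 2469 genes (13.4%) were called, 1323 higher (7.18%) and 1146 lower (6.22%). Of these, 1387 were called under P4 too, which is 56.2% of the placebo calls and 27.3% of the P4 calls. The direction was the same for 1311 of them (94.5%). The difference between the 2 effects was tested as an interaction, and 1350 genes (7.33%) were called, 637 (3.46%) with the more positive and 713 (3.87%) with the more negative effect under P4. Of the 5085 genes called under P4, 976 (19.2%) were among them, and all P4 libraries of the 2 genotypes enter both tests. The count of 1350 was 897 and 829 without WT placebo sample 2 or 3, and 760, 879 and 692 without Y541S P4 sample 1, 2 or 3. It was 2130 with DESeq2 and 510 with the libraries of the first identifier series alone, which leaves out WT P4 4 and 5 and Y541S placebo 5.

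For some genes the effect of Y541S had opposite signs in the 2 settings. Eef2k, the kinase that slows translation elongation, was 44.4 to 74.7 CPM in WT P4 and 220, 236 and 249 CPM in Y541S P4 (2.04 ± 0.2), whereas under placebo it was 70.9 to 82.5 CPM in WT and 33.4 to 37.5 CPM in Y541S cells (-1.12 ± 0.22). The effects differed by 3.16 ± 0.3 (adjusted p = 4e-07). Ppp1r1b, the phosphatase inhibitor DARPP-32, showed the same reversal, with 3.29 ± 0.35 under P4, -1.25 ± 0.37 under placebo and a difference of 4.54 ± 0.52 (adjusted p = 5.38e-06). Other genes overlap 75.4% of its span. Dpysl5 (difference 4.63 ± 0.73), Tnxb (4.26 ± 0.83) and Cyp2f2 (4.07 ± 0.7) followed.

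In the other direction, Tph1, the enzyme that starts serotonin synthesis outside neurons, was 41.1 to 95.2 CPM in WT P4 and 48.2 to 58.7 CPM in Y541S P4 (-0.28 ± 0.58). Under placebo it was 4.39 to 7.36 CPM in WT and 767 to 1780 CPM in Y541S cells (7.55 ± 0.82), and the effects differed by -7.83 ± 0.97 (adjusted p = 2.06e-05). Fstl1, a secreted glycoprotein, rose under placebo (4.35 ± 0.87) and stood at -2 ± 0.78 under P4, a difference of -6.36 ± 1.16 (adjusted p = 0.00138). Slpi rose in both settings, by 3.49 ± 0.72 under P4 and 7.84 ± 0.98 under placebo (difference -4.35 ± 1.07, adjusted p = 0.0132). Wnt5a fell under P4 (-1.95 ± 0.43) and was higher under placebo (2.08), a difference of -4.03 (adjusted p = 0.000337).

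For several of the leading changes under P4 the difference from the placebo effect did not pass this test, which does not show the effects to be equal. For Slc2a3 the placebo effect was 9.86 ± 1.16 and the difference -1.95 ± 1.18 (adjusted p = 0.349). For Esr1 it was -3.07 ± 0.36, with a difference of 0.25 ± 0.45 (adjusted p = 0.814). For Tnfsf11, which was at most 0.309 CPM in WT placebo and 0.245 to 3.34 CPM in Y541S placebo, the placebo effect was 2.65 ± 1.43 and the difference 1.34 ± 1.82 (adjusted p = 0.73).

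**Figure D5:**
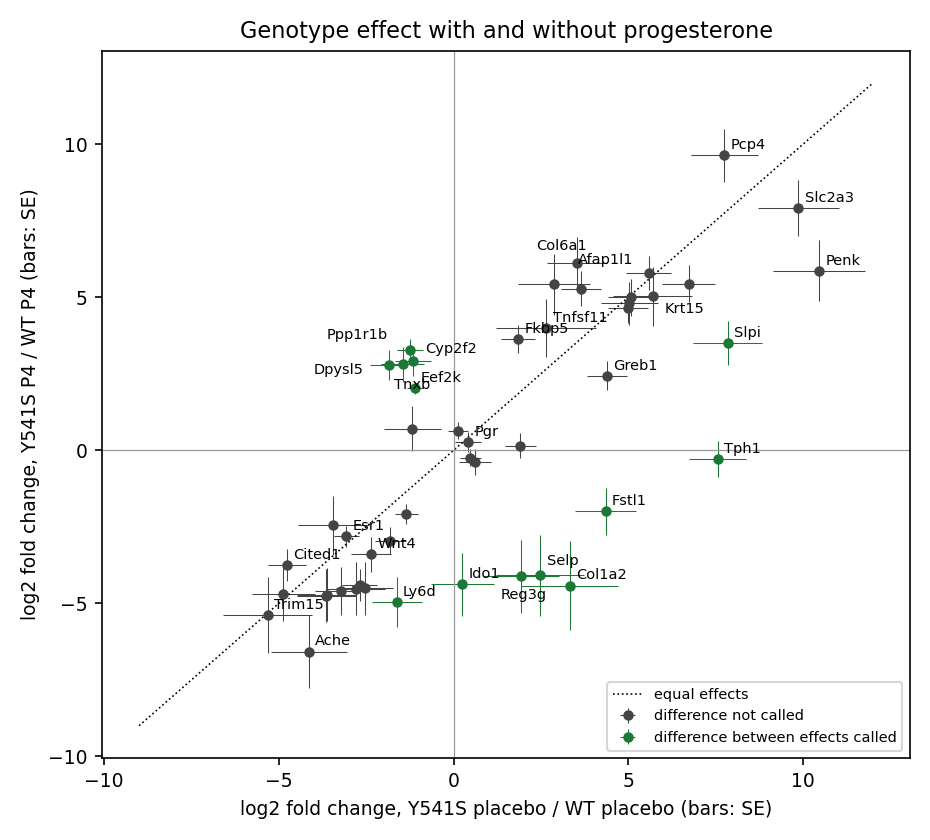
Log2 fold change of Y541S over WT under P4 (vertical axis) against that under placebo (horizontal axis), with SE bars, for the genes named by size of change and the receptor and target panel. Points on the dotted line have equal effects; green points had a called difference, with Eef2k and Ppp1r1b to the upper left and Tph1 and Fstl1 to the lower right.

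The 2 Esr1 mutations were compared under the same pellet. Between Y541S P4 and D542G P4, 2072 genes (11.2%) were called, 1083 higher (5.88%) and 989 lower (5.37%) in Y541S cells. With DESeq2's size factors in place of TMM the split was 41.3% higher in place of 52.3%, of 1884 genes. The count was 914 without D542G P4 sample 2, and 1069, 1074 and 946 without Y541S P4 sample 1, 2 or 3. Of the genes called between Y541S P4 and WT P4, 1447 (28.5%) were called here too; the 2 comparisons share the Y541S libraries. Against WT P4 itself, which both mutants share as control, D542G P4 had 2402 called genes (13.0%).

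Foxa1 was 184 to 347 CPM in D542G P4, against 49.8 to 53.9 CPM in Y541S P4 (-2.5 ± 0.45, adjusted p = 0.000654). Wnt4 was 220 to 532 CPM, against 31.7 to 48.1 CPM (-3.13 ± 0.59, adjusted p = 0.00101). Esr1 was 78.6 to 130 CPM in D542G P4, a little above the Y541S range of 57.1 to 100 CPM and overlapping it (-0.46 ± 0.33, adjusted p = 0.384). The 3 genes thus stood differently between the mutants: Foxa1 and Wnt4 were lower in Y541S cells without overlap, and for Esr1 no difference passed.

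Genes higher in Y541S than in D542G cells included Krt6a (18.2 to 72.3 CPM in D542G P4; 3.83 ± 0.51, adjusted p = 2.86e-05), Greb1 (2.55 to 7.57 CPM; 2.4 ± 0.52, adjusted p = 0.00327) and Col6a1 (18.7 to 46.3 CPM; 3.75 ± 0.83, adjusted p = 0.0043). Among the genes higher in D542G cells, Kcnd2, a potassium channel, was 24.1 to 130 CPM there and 1.05 to 2.53 CPM in Y541S P4 (-5.08 ± 1, adjusted p = 0.00159). Calca was 3650 to 8370 CPM in D542G P4, against 404 to 520 CPM in Y541S P4 (-3.64 ± 0.87, adjusted p = 0.00749). RANKL behaved otherwise: Tnfsf11 was 776 to 1160 CPM in D542G P4 and 200 to 302 CPM in Y541S P4, ranges that do not overlap, and the difference did not pass (-1.81 ± 0.97, adjusted p = 0.228).

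The Y541S effect was also set beside that of E2 in WT cells. Between WT E2 and WT placebo, groups that share no library with the P4 groups, 5796 genes (31.5%) were called. The 2 comparisons had 2450 called genes in common, 48.2% of the Y541S calls under P4 and 42.3% of the E2 calls. Of these, 2133 (87.1%) had the same direction and 317 the opposite one. Across all 18426 genes, which are not independent, the log2 fold changes of the 2 comparisons had a Pearson correlation of 0.33, and the same value was found between the P4 and placebo effects of Y541S. Esr1 (-4.82 ± 0.39 with E2), Wnt4 (-4.29 ± 0.62), Foxa1 (-3.53 ± 0.47), Slc2a3 (6.57 ± 1.03) and Greb1 (2.68 ± 0.54) were among the genes with the same direction. Krt15 was not: it stood at 0.24 ± 0.92 with E2 (adjusted p = 0.873).

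Y541S P4 was finally compared with WT E2+P4, in which WT cells received estradiol together with progesterone. Between them 3192 genes (17.3%) were called, 1487 higher (8.07%) and 1705 lower (9.25%) in Y541S P4. The count was 2024 and 2083 without WT E2+P4 sample 2 or 3, and 2117 and 2103 without Y541S P4 sample 2 or 3. Greb1 was 118 to 236 CPM in WT E2+P4, above the 16.3 to 29.3 CPM of Y541S P4 (-3.08 ± 0.52, adjusted p = 0.000104), which in turn was above the 2.69 to 6.56 CPM of WT P4. Fkbp5 was 271 to 354 CPM in WT E2+P4 and 287 to 344 CPM in Y541S P4 (0 ± 0.46, adjusted p = 1).

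Other genes stood far apart between them. Krt15 was 14.2 to 17.5 CPM in WT E2+P4 against 1170 to 1350 CPM in Y541S P4 (6.28 ± 1.16, adjusted p = 0.000263). Arg1, arginase, was 11.8 to 18.2 CPM against 371 to 457 CPM (4.78 ± 0.41, adjusted p = 5.12e-09), and Clca1, a secreted modulator of chloride channels, was at most 0.549 CPM against 278 to 304 CPM (10.2 ± 1.07, adjusted p = 9.51e-08). Col8a1 was 7.93 to 16.3 CPM in WT E2+P4, 235 to 376 CPM in Y541S P4 and 1100 to 1580 CPM in WT P4, so that the mutant lay between the WT groups without overlap.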

How the data were processed

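The deposited files hold whole-number read counts per gene for each library, made by the authors on the genome build GRCm38, per the submitters' processing notes; the aligner, the counting tool and its strand setting are not given in the sources used here. Per the labels' protocols, mature luminal cells were sorted by flow cytometry from mammary glands, RNA was isolated with Qiagen RNeasy Micro Plus kits and libraries were made with Nextera XT. Gene symbols were matched to GENCODE vM21 for 52489 of 52636 identifiers.

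Counts of all 37 libraries (12 groups) were fitted with edgeR 4.0.16 in R 4.3.3, with 1 coefficient per group, TMM scaling, edgeR's filter on low counts by group (18426 genes kept) and robust quasi-likelihood tests. P-values were adjusted by Benjamini-Hochberg over all 18426 genes, with a threshold of 0.05. All groups shared 1 estimate of the spread (biological coefficient of variation 0.458, 25 residual degrees of freedom). The SE of a log2 fold change is its size divided by the square root of the F statistic. CPM is the count over the TMM-scaled total of the tested genes, on the usual CPM scale. Depth sets the precision of low counts only in part, since spread between libraries adds to it. The scripts were tested on simulated counts. Of 100 simulated 2-fold changes between Y541S P4 and WT P4 22% were called, and of 100 4-fold changes 49%, with 5 false calls. A gene that did not pass may therefore still have changed.

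Genes were named as the 12 largest called rises and falls that had groups without overlap and averaged 2 or more in log2 CPM, a panel of 18 receptor and target genes, 5 in each direction for the interaction, the D542G P4 and the WT E2+P4 comparisons, and up to 4 per list by smallest p over 33 lists of 514 genes. Other named genes (such as Fosb, Gata3, Hmmr, Krt5, Krt8, Krt14, Mad2l1, Mcm6, Ncoa3, Nr3c2, Pigr, Saa1, Saa2, Socs2 and Trp63) were chosen after their values were seen. A few genes that the rule names are not reported here. The comparison and the lists were chosen with earlier results of these data known. Alternatives were DESeq2 1.42.0, its size factors, no filter on low counts, the compared groups alone, a replicate block, the 34 libraries of the first identifier series alone, and each replicate left out in turn.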

Additional observations from a re-analysis of the deposited data

Results flagged for a closer look

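In 23 cases among the 182 genes named by rule 1 WT P4 library stood far from the other 3, where chance marks about 1 in 20 groups. That rate does not hold for Notum, Cts6, Csn1s1 and Cd8a. Their other 3 WT libraries were at 0, so that any count sets 1 library apart. WT P4 sample 2 stood apart for 14 genes. It was high for Krt15 (89.2 CPM), Ak4 (6.35 CPM), Krt17 (372 CPM), Dcn (236 CPM), Hspb8 (66.7 CPM), Vdr (123 CPM), Cdc20 (29.3 CPM), Ccnb2 (28.6 CPM), Cenpa (35.3 CPM) and Scd2 (167 CPM). It was low for Myc (193 CPM). It was also the highest for Hsd11b2 (1.79 CPM), Notum (0.736 CPM) and Cts6 (0.023 CPM), the last 2 being at 0 in the other 3 WT libraries. Sample 3 stood apart for Col1a2 (101 CPM), Col1a1 (68.6 CPM), Pnmt (1.62 CPM), Sbp (25.3 CPM), Csn1s1 (0.027 CPM) and Sftpd (1.43 CPM), sample 4 for Cited1 (1590 CPM), and sample 5 for Vwf (98.4 CPM) and Cd8a (0.0318 CPM). Their part in the results was not tested beyond the values without each library.

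For 32 of the genes named by rule, 23 of them called under P4, the Y541S effect differed between P4 and placebo by edgeR's test of the difference (log2 scale, P4 minus placebo). It was more positive under P4 for Dpysl5 (4.63), Ppp1r1b (4.54), Tnxb (4.26), Cyp2f2 (4.07), Adora1 (3.38), Eef2k (3.16), Vdr (1.73) and Erbb3 (0.98). It was more negative for Ctsj (-12.88), Col1a1 (-8.66), Col1a2 (-7.74), Selp (-6.56), Igfbp6 (-6.1), Reg3g (-6.05), Plvap (-5.35), Ido1 (-4.63), Slpi (-4.35), Krt4 (-4.09), Wnt5a (-4.03), Ly6d (-3.33), C3 (-2.26), Msmo1 (-1.95) and Stat2 (-1.85). The 9 not called between Y541S P4 and WT P4 all had the more negative effect under P4: Ctsr (-9.13), Tph1 (-7.83), Fstl1 (-6.36), Cd74 (-4.07), Esam (-3.72), H2-Eb1 (-3.62), Pecam1 (-3.53), Sparc (-3.29) and Mfge8 (-1.4).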

How the results depend on the processing

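The 5085 genes called between Y541S P4 and WT P4 numbered 3707 to 5024 with 1 library left out, 5799 with DESeq2, 5097 with its size factors, 6268 with the compared groups alone, 4331 without the filter on low counts and 3428 in the first identifier series. Replicate numbers 2 and 3 occur in both genotypes, but same-numbered libraries did not deviate together (correlations -0.12 and -0.07). With the replicate block the count was 3780, and with the block in a fit of the compared groups alone, an alternative chosen after seeing the data, it was 2240 (917 higher, 1323 lower); the same fit left 1317 genes shared with WT E2 against WT placebo, in place of 2450 (1892 to 2449 with 1 library left out). The 1350 genes of the interaction numbered 2130 with DESeq2, 510 in the first identifier series, 349 with the replicate block and 692 to 1552 with 1 library left out. With 1 library left out, counts were 914 to 2053 against D542G P4, 2024 to 3419 against WT E2+P4, 1487 to 2422 for the placebo comparison, 4323 to 5541 for WT E2 against WT placebo and 1285 to 2427 for D542G P4 against WT P4. With the compared groups alone, the last 3 had 952, 3139 and 1536 called genes, and D542G P4 against WT P4 had 1361 in the first identifier series. The 2469 placebo genes numbered 1523 without WT placebo sample 1 and 1487 without sample 3, and the 2402 of D542G P4 against WT P4 numbered 1285 without D542G P4 sample 2. The cause of these shifts was not tested.

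Of 212 results on named genes under 2955 alternatives, 2763 stayed on the same side of the threshold, 156 lost the call and 34 gained it. Another 2 changed sign with a call before the change, after it or both. A change of sign where neither fit was called counts among the 2763. Klk1b21 went from 4.12 to -0.17 (adjusted p = 0.956, edgeR) without Y541S P4 sample 1 and to 4.74 without WT P4 sample 4. Krt17 went from -0.13 to 3.33 (adjusted p = 0.0419, edgeR) without WT P4 sample 2 and -1.36 without Y541S P4 sample 3.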

Other observations

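Several families outside the lists were counted after their values had been seen. Among the components of protein synthesis, 48 of 78 cytosolic ribosomal protein genes were called higher in Y541S P4 than in WT P4 and none lower, against 14.6% and 13.0% of all tested genes, with a median log2 fold change of 0.73. Many have processed pseudogenes, with which reads could be shared. Under placebo none was higher and 1 was lower (median -0.12). Mitochondrial ribosomal proteins had 41 of 73 higher and none lower (median 0.49). Of 8 genes counted for the CCT chaperonin, which folds actin and tubulin, 7 were higher. The gene not called was Cct6b, at a mean of 1.04 CPM in WT P4. Cct5 was 533, 468, 475 and 456 CPM in WT P4 and 973, 884 and 871 CPM in Y541S P4 (0.91 ± 0.11, adjusted p = 3.27e-07). Proteasome subunits had 23 of 36 higher and none lower, and snRNP proteins of the spliceosome 9 of 12.

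The Smads carry signals of the TGF-beta and BMP receptors into the nucleus. Of 8 Smads 5 were called lower and none higher, against 13.0% and 14.6% of all tested genes, and 4 without WT P4 sample 2. Smad2 (0.14), Smad5 (-0.28) and Smad9 (0.51) did not pass. Smad4, the common partner of the others, was 202, 202, 180 and 188 CPM in WT P4 and 17.3, 18.8 and 19.4 CPM in Y541S P4 (-3.38 ± 0.6, adjusted p = 9.67e-05). In the Y541S placebo libraries Smad4 was 41, 41.7 and 211 CPM, so that these differed among themselves. The WT E2+P4 libraries did so too, at 76.7, 21.7 and 140 CPM. Smad4 was 176 to 199 CPM in WT placebo, 183 to 260 CPM in WT E2 and 126 to 169 CPM in D542G P4. Smad7, an inhibitory member, was 59.7 to 84.3 CPM against 8.07 to 13.5 CPM (-2.7 ± 0.33, adjusted p = 7.22e-07). Its effect differed from that under placebo (-0.7, adjusted p of the difference = 0.00622, edgeR). That placebo effect was uneven too. Smad7 was 10.4 and 20.4 CPM in Y541S placebo samples 2 and 3 and 50.8 CPM in sample 5, against 40.5 to 47.5 CPM in WT placebo. Tgfbr2, a TGF-beta receptor also chosen after its values were seen, was 473 to 668 CPM against 172 to 236 CPM (-1.52 ± 0.21, adjusted p = 3.5e-06). Under placebo Tgfbr2 was lower in Y541S cells as well (-1.97 ± 0.22, adjusted p = 3.48e-07, edgeR). The difference between the effects did not pass (adjusted p = 0.38, edgeR). Tgfbr2 was also 173 to 276 CPM in D542G P4, 193 to 255 CPM in WT E2+P4 and 128 to 266 CPM in WT E2.

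Beta-defensins had 8 of 14 called higher, against 14.6% of all tested genes, or 6 without WT P4 sample 2. Only Defb1 among the 8 was abundant. Defb6 rested on Y541S P4 sample 3, at 13.7 CPM there and 0 and 0.0447 CPM in the other Y541S libraries. The rest were near the floor, with Y541S P4 means of 0.143 CPM (Defb50) to 0.991 CPM (Defb13). Defb1, an antimicrobial peptide of epithelia, was 30.1, 32.4, 6.21 and 14 CPM in WT P4 and 280, 339 and 376 CPM in Y541S P4 (4 ± 0.89, adjusted p = 0.00113).

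The direction of change varied with transcript length. Among protein-coding genes, 20.7% of the fifth with the shortest transcripts (84 to 1912 bases) were called higher and 11.0% lower, with a median of 0.09. In the fifth with the longest transcripts (from 5214 bases) 10.3% were higher and 16.9% lower, with a median of -0.18. This trend was not limited to Y541S under P4. For WT E2 against WT placebo the median was 0.22 for the genes with the shortest transcripts and -0.12 for those with the longest. For D542G P4 against WT P4, which shares the WT P4 libraries, these medians were 0.11 and -0.03. The placebo effect of Y541S ran the other way, with medians of -0.0 and 0.09. The part of length in the results was not tested.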
